A study of Mus musculus with 6 samples.

Results

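Mitochondria make only a handful of their own proteins, and nearly all others are synthesised in the cytosol and imported. Precursors enter through the translocase of the outer membrane (TOM). They are then sorted by the sorting and assembly machinery (SAM) of the outer membrane, by a disulfide relay and small chaperones in the space between the membranes, by the carrier translocase TIM22, or by the presequence translocase TIM23, whose motor pulls them into the matrix. There the targeting sequence is cut off and chaperones fold the protein. Skeletal muscle fibres are rich in mitochondria, and this machinery sets what reaches them.

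The set described here holds 40 of the 19938 genes that have a probe set on the array naming them alone. Its members have a symbol starting with Timm or Tomm, or are 1 of 15 further genes of the SAM, the disulfide relay, the import motor, the presequence protease and the matrix chaperones. The rule goes by symbol and function, not by measured values. Members and their roles were, however, chosen with earlier results of these data known. A further probe set, which names Timm10b together with another gene, was not used. The symbols bring in Timmdc1, better known as an assembly factor of respiratory complex I, and Tomm34, a cytosolic co-chaperone, and both were kept.

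The study profiled gastrocnemius, a calf muscle, from 3 male mice labelled as homogenous SPARC knockouts and from 3 wild type males, all at 12 weeks of age. SPARC is a secreted glycoprotein that binds collagen. Both groups carry the strain label B6;129S-Sparctm1Hwe/J, and no treatment is named. Each array was taken as 1 mouse, and the labels leave unstated whether the wild types were littermates of the knockouts or a separate strain, so genotype and any strain difference cannot be told apart.

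Values are log2 of the deposited intensity, and a change is the knockout mean minus the wild type mean on that scale. Sparc itself read 6.74, 6.46 and 5.83 in knockout arrays 1, 2 and 3, against 11.80, 11.73 and 11.87 in wild type arrays 1, 2 and 3, so every array matched its label. Of 16487 genes tested, 164 passed an adjusted p of 0.05 (limma, Benjamini-Hochberg), which is 0.995% of them. The knockouts varied more: on the first principal component, knockout array 2 had a score of 2.45 and the other 2 knockout scores were 26.5 and 19.8, while wild type scores spanned -16.8 to -15.8. Over the genes tested, knockout array 2 correlated at 0.983 and 0.986 with knockout arrays 1 and 3. Its correlations with the wild type arrays were higher, at 0.988 to 0.990. The skeletal muscle fibre markers Ckm, Acta1, Myh4, Tnnt3, Pvalb, Mb and Des, which check the labelled tissue, were all bright, with knockout means of 12.03 to 13.30 and wild type means of 12.23 to 13.45.

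Import and folding genes were mostly lower in knockout muscle by small amounts, and 2 of them fell past the threshold. Of the 39 members bright enough to be tested, 37 had a negative change, against 50% of all genes tested. Only Tomm5 and Mtx2 were positive, joined by Hspa9 and Tomm70a, both near 0, after a second quantile normalization. The median change was -0.20, which is 12.8% lower on the intensity scale, against a median of 0.00 over all genes. The middle part of the members, between the quartiles, ran from -0.29 to -0.10, and that of all genes from -0.13 to 0.13. In a bulk sample, fewer cells of a type and less RNA per cell cannot be told apart.

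Of the 39 members tested, Gfer and Timm17a were called lower at an adjusted p under 0.05, and 0 were called higher. Among all genes, 0.673% were called lower and 0.321% higher. An unadjusted p under 0.05 was found for 10 of 39 members on the lower side, against 10.3% of all genes. On the higher side it was found for 0, against 8.16%. The groups separated without overlap, knockout under wild type, in 16 of 39 members (41.0%), against 13.8% of all genes. The other way round, they separated in 0 members, against 11.1%. The count of called members was 6 without knockout array 2, where 6.17% of all genes were called, and 1, Gfer, without any single wild type array, where 0.164% to 0.194% were. The members share 6 arrays, so these counts are not independent of each other.

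**Figure D1:**
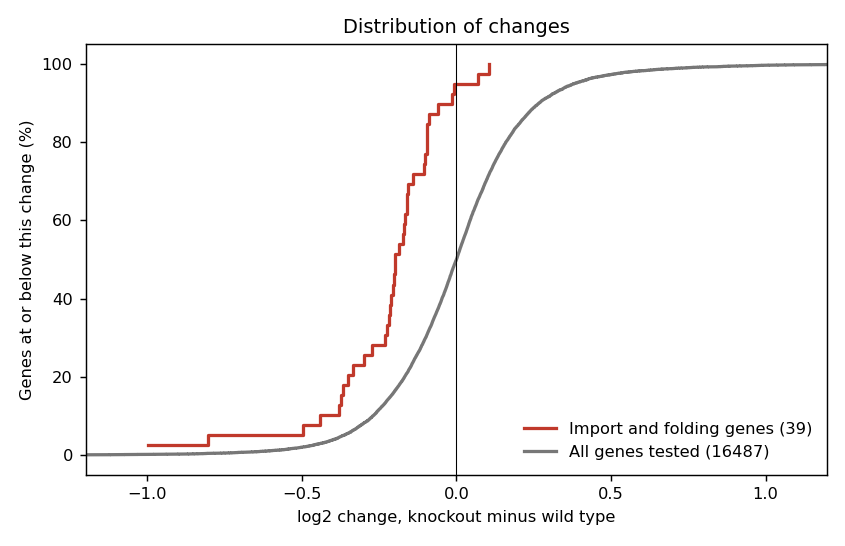
Cumulative share of genes, in percent, against the log2 change (knockout minus wild type, shown from -1.2 to 1.2), for the 39 import and folding genes tested and for all 16487 genes. The members' curve lies to the left of that of all genes, with a median of -0.20 against 0.00, and Gfer and Timm17a form its low end.

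The shift was seen in each knockout array. The median of the members, set against each gene's wild type mean, was -0.19, -0.14 and -0.27 in knockout arrays 1, 2 and 3, and 0.10, -0.04 and -0.05 in wild type arrays 1, 2 and 3. The same median over all genes tested stayed between -0.05 and 0.03 in all 6 arrays. Wild type array 1 was the highest wild type array in 28 of 39 members (71.8%), against 29.4% of all genes, and without it the members' median was -0.14. Knockout array 3 was the lowest knockout array in 22 members (56.4%, against 33.9% of all genes).

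**Figure D2:**
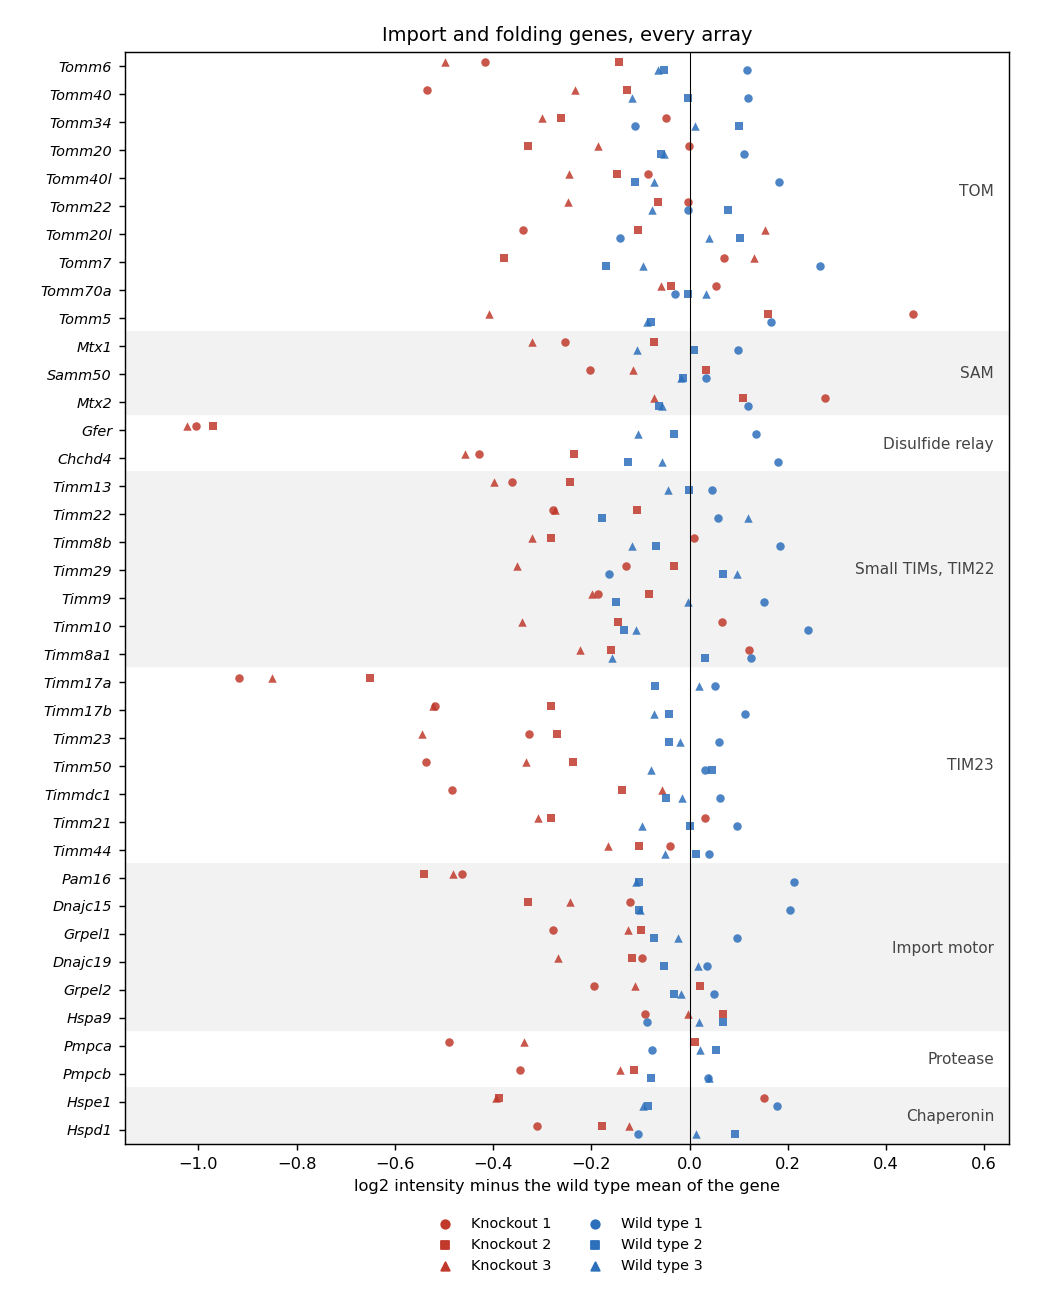
Log2 intensity of each of the 39 tested members in every array, as the difference from the gene's wild type mean, grouped by step of import. Gfer and Timm17a stand apart on the left in all 3 knockout arrays, and wild type array 1 is often the rightmost wild type point.

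The disulfide relay of the intermembrane space had the lowest median change of the 8 steps, -0.69 over its 2 genes. It consists of Chchd4 (Mia40 in yeast), the oxidoreductase that puts disulfide bonds into small incoming proteins and so traps them, and Gfer (augmenter of liver regeneration, Erv1 in yeast), the sulfhydryl oxidase that reoxidises it. Gfer read 6.17, 6.20 and 6.15 in knockout arrays 1, 2 and 3, against 7.31, 7.14 and 7.07 in wild type arrays 1, 2 and 3. The 3 knockout arrays lay close together, and the groups were far from overlapping. Gfer fell by 1.00 ± 0.10 (SE) on the log2 scale, or 2.00-fold (limma adjusted p = 0.00329), and ranked 20 by p among all genes tested. Gfer and Chchd4 each have only 1 probe set, so no other probe set could be set beside these values.

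Chchd4 read 6.39, 6.59 and 6.37 in knockout arrays 1, 2 and 3, against 7.00, 6.70 and 6.77 in wild type arrays 1, 2 and 3. The groups did not overlap, though knockout array 2 and wild type array 2 were close, and its change of -0.37 ± 0.12 (SE) did not pass over all genes (limma adjusted p = 0.143). The log2 ratio of Gfer to Chchd4 was -0.23, -0.39 and -0.22 in the knockout arrays, against 0.30, 0.44 and 0.30 in the wild type arrays. The difference of -0.63 in this ratio had an exact two-sided permutation p of 0.1, the smallest that 3 against 3 arrays allow, so no pair could pass 0.05, and 0.333 after adjustment over the 10 pairs of paralogs or partners compared.

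The promoter of Gfer is shown because Gfer had the largest change in the set. RefSeq (GRCm38.p6) places its window, 250 bases before to 50 after the start, at chr17:24696107-24696406 on the minus strand. It has a GC content of 80.3%, against a median of 52.7% over all promoter windows.
Gfer: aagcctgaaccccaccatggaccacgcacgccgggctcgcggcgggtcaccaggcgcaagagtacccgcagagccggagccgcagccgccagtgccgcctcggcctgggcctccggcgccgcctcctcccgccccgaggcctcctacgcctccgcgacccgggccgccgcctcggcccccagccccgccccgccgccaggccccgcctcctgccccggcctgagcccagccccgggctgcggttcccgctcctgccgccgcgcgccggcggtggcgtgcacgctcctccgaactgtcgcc
None of the 7 motifs searched on both strands was found in it. These were the heat shock element core GAANNTTC, the NRF1 site (GCGCA, any base, then GCGC), the ETS core CCGGAAG, the ATF4-CHOP element core TGATGNAA, the CCAAT box, the estrogen-related receptor site TCAAGGTCA and the YY1 core AAGATGGC.

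All 7 genes grouped with the presequence translocase TIM23 had negative changes, with a median of -0.37. The median was also -0.37 over the 6 without Timmdc1. The groups did not overlap, knockout under wild type, in 5 of the 7 (4 of the 6), against 13.8% of all genes. An unadjusted p under 0.05 was found for 4, against 10.3% of all genes on the lower side. Timm17a, a channel-forming core subunit, read 9.92, 10.18 and 9.98 in knockout arrays 1, 2 and 3, against 10.88, 10.76 and 10.85 in wild type arrays 1, 2 and 3. Every knockout array was well under every wild type array. Timm17a fell by 0.81 ± 0.10 (SE), or 1.75-fold (limma adjusted p = 0.00968). Its other probe set had a change of -0.69. The call was lost without any single wild type array, at adjusted p-values of 0.0712, 0.0624 and 0.0883 without arrays 1, 2 and 3, while its change stayed at -0.84 to -0.78 in those fits.

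Timm17b, the X-linked paralog of Timm17a and an alternative subunit at the same place in the translocase, read 7.43, 7.66 and 7.42 in knockout arrays 1, 2 and 3, against 8.06, 7.90 and 7.87 in wild type arrays 1, 2 and 3. The groups did not overlap, and its change was -0.44 ± 0.11 (SE; limma adjusted p = 0.0903). The log2 ratio of Timm17a to Timm17b was 2.49 to 2.56 in the knockout arrays, against 2.83 to 2.98 in the wild type arrays. The ratios did not overlap, with a difference of -0.36 (exact permutation p = 0.1, adjusted p = 0.333).

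The promoter windows of both paralogs are shown to set the called gene beside its copy, with each CCAAT box, or its reverse complement, in capitals. That of Timm17a lies at chr1:135313688-135313987 on the minus strand and that of Timm17b at chrX:7899086-7899385 on the plus strand (RefSeq, GRCm38.p6).
Timm17a: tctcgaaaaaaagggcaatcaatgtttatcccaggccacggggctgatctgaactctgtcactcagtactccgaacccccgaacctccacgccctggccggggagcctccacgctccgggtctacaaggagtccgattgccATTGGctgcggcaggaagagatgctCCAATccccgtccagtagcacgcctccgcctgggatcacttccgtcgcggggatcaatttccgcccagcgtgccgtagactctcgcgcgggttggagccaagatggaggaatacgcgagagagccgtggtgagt
Timm17b: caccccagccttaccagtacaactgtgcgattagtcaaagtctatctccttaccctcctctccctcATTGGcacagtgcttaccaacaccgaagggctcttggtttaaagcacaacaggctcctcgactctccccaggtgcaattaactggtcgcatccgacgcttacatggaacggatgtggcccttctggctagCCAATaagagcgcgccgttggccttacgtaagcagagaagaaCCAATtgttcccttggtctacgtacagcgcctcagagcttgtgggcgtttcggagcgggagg
Timm17a holds 2 such boxes and Timm17b 3, and no other motif of the 7 was found in either window. The CCAAT box was present in 28.9% of the members' 38 windows, against 37.4% of all 32851 windows.

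Timm23, the channel subunit that gives the complex its name, read 11.30, 11.36 and 11.08 in knockout arrays 1, 2 and 3, against 11.69, 11.59 and 11.61 in wild type arrays 1, 2 and 3. Its change was -0.38 ± 0.09 (SE; limma adjusted p = 0.0971). It has 4 probe sets, of which 2 carry identical values, and the changes of all 4 lay between -0.38 and -0.35. Timm50, the receptor that hands precursors to the channel, read 7.49, 7.79 and 7.70 in knockout arrays 1, 2 and 3, against 8.06, 8.08 and 7.95 in wild type arrays 1, 2 and 3, a change of -0.37 ± 0.11 (SE; limma adjusted p = 0.128). Both genes had groups that did not overlap. The other 3 genes of this group, Timmdc1, Timm21 and Timm44, had changes of -0.23, -0.19 and -0.10.

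**Figure D3:**
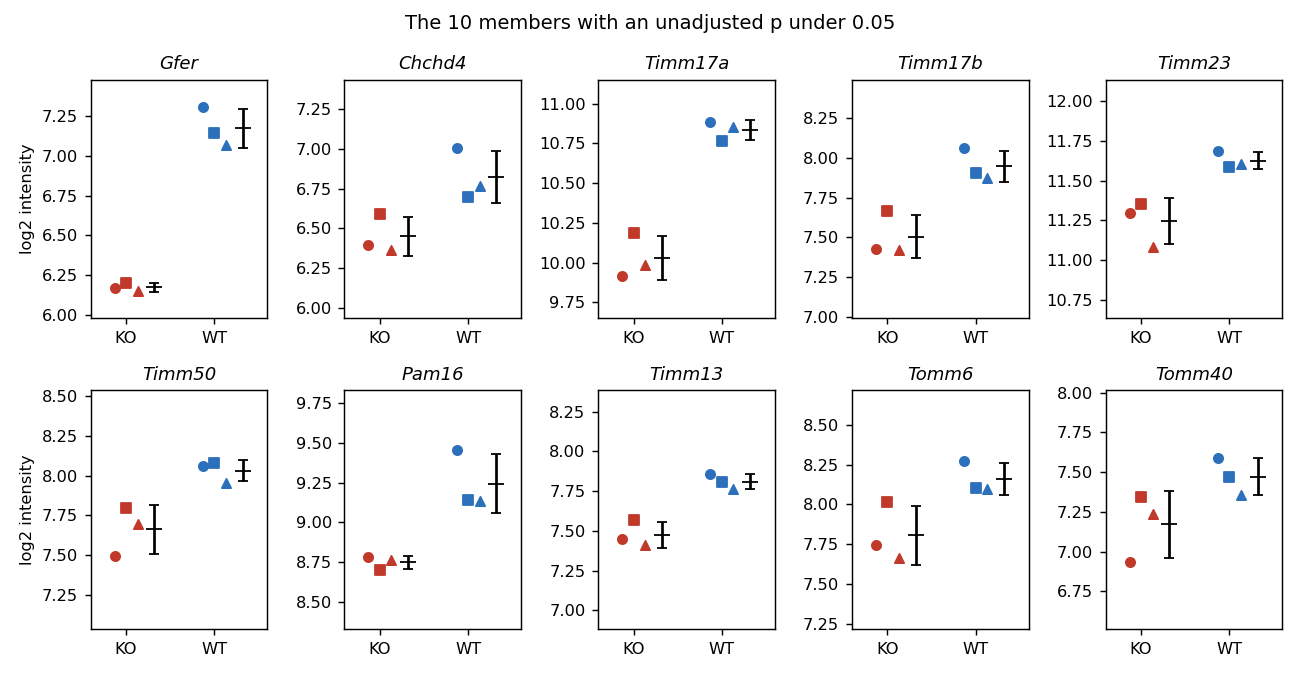
Log2 intensity in each knockout (left) and wild type (right) array of the 10 members with an unadjusted p under 0.05, with the mean and SD of 3 arrays beside the points; each panel spans 1.5 log2 units. No knockout array reaches a wild type array in any panel, with the nearest approach in Tomm40.

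The import motor drives precursors into the matrix by cycles of the Hsp70 chaperone Hspa9 (mortalin), which J-proteins and nucleotide exchange factors regulate. All 6 members of this group had a negative change. Only Pam16 (Magmas), the J-like protein that restrains the motor's J-protein, had an unadjusted p under 0.05 (10.3% of all genes, lower side). The groups did not overlap, knockout under wild type, in 4 of the 6, against 13.8% of all genes. These were Pam16, Dnajc15, Grpel1 and Dnajc19. Pam16 read 8.78, 8.70 and 8.76 in knockout arrays 1, 2 and 3, against 9.46, 9.14 and 9.14 in wild type arrays 1, 2 and 3. The knockout arrays lay close together and wild type array 1 stood above the other wild types. The change was -0.50 ± 0.11 (SE; limma adjusted p = 0.0766), and -0.43 in its other probe set. The J-proteins Dnajc15 and Dnajc19 had changes of -0.23 and -0.16, and the exchange factors Grpel1 and Grpel2 of -0.17 and -0.09.

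Hspa9, the motor's ATPase, differed by less than the spread between arrays. It read 10.94, 11.10 and 11.03 in knockout arrays 1, 2 and 3, against 10.95, 11.10 and 11.05 in wild type arrays 1, 2 and 3, a change of -0.01 ± 0.09 (SE). The groups overlapped fully.

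Of the carrier pathway, all 7 tested genes had negative changes, with a median of -0.17, but 0 passed over all genes. Only 1 had an unadjusted p under 0.05, against 10.3% of all genes on the lower side. This was Timm13, a small chaperone that escorts membrane proteins across the intermembrane space. It read 7.45, 7.57 and 7.41 in knockout arrays 1, 2 and 3, against 7.86, 7.81 and 7.77 in wild type arrays 1, 2 and 3, a change of -0.34 ± 0.09 (SE; limma adjusted p = 0.114). Its groups did not overlap. The other small chaperones Timm8b, Timm9, Timm10 and Timm8a1 had changes of -0.20, -0.16, -0.14 and -0.09, and Timm22, the carrier channel, and its partner Timm29 had changes of -0.22 and -0.17. The groups overlapped in each of these 6 genes. Timm8a2 lay at 2.60 to 2.80 in knockout and 2.70 to 2.88 in wild type arrays, under the dim limit of 3.90, and was the only member not tested.

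Of the 10 genes with a Tomm symbol, 9 had negative changes, with a median of -0.13. Without the cytosolic Tomm34, 8 of 9 were negative and the median was -0.10. Tomm6, a small stabilising subunit, read 7.74, 8.02 and 7.66 in knockout arrays 1, 2 and 3, against 8.27, 8.11 and 8.09 in wild type arrays 1, 2 and 3. Its change was -0.35 ± 0.12 (SE; limma adjusted p = 0.164). Tomm40, the pore itself, read 6.94, 7.34 and 7.24 in knockout arrays 1, 2 and 3, against 7.59, 7.47 and 7.35 in wild type arrays 1, 2 and 3, a change of -0.30 ± 0.13 (SE; limma adjusted p = 0.255). Both had groups that did not overlap, although knockout array 2 lay just under the lowest wild type array in each.

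Of the receptors of the TOM complex, the presequence receptor Tomm20 had a change of -0.17 ± 0.11 and the central receptor Tomm22 one of -0.10 ± 0.10 (SE). The receptor for carrier precursors, Tomm70a, had a change of -0.01 ± 0.08 (SE). Tomm34, Tomm40l, Tomm20l and Tomm7 had changes of -0.20, -0.16, -0.10 and -0.06, each with overlapping groups.

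Tomm5, another small subunit, was the exception in direction. It read 8.76, 8.47 and 7.90 in knockout arrays 1, 2 and 3, against 8.47, 8.23 and 8.22 in wild type arrays 1, 2 and 3. The knockout arrays lay on both sides of the wild types, and its change of 0.07 ± 0.20 (SE) turned to -0.12 without knockout array 1 and to 0.31 without knockout array 3.

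The SAM inserts barrel-shaped proteins into the outer membrane, and its 3 genes had 0 with an unadjusted p under 0.05. Mtx1, a metaxin of the complex's cytosolic face, read 6.48, 6.66 and 6.41 in knockout arrays 1, 2 and 3, against 6.83, 6.74 and 6.62 in wild type arrays 1, 2 and 3. Its partner Mtx2 read 8.90, 8.73 and 8.55 in knockout arrays 1, 2 and 3, against 8.74, 8.56 and 8.57 in wild type arrays 1, 2 and 3. The groups overlapped in both. The changes were -0.22 ± 0.11 for Mtx1 and 0.10 ± 0.11 for Mtx2 (SE), and the log2 ratio of Mtx1 to Mtx2 was -2.42 to -2.07 in the knockout arrays, against -1.94 to -1.82 in the wild type arrays (exact permutation p = 0.1, adjusted p = 0.333). Samm50, the barrel that does the inserting, had a change of -0.10.

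The ratios of Tomm40 to Tomm40l, Tomm20 to Tomm20l, Timm8b to Timm8a1, Grpel1 to Grpel2 and Dnajc15 to Dnajc19 overlapped between the groups, with exact permutation p-values of 0.2 to 0.7. Those of Pmpca to Pmpcb and Hspd1 to Hspe1 overlapped too (p of 0.5 and 1). With 3 arrays in each group this does not show that the genes of a pair changed alike.

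In the matrix, the presequence protease that cuts off targeting sequences has the subunits Pmpca and Pmpcb. Pmpca read 9.06, 9.56 and 9.22 in knockout arrays 1, 2 and 3, against 9.48, 9.61 and 9.57 in wild type arrays 1, 2 and 3. Knockout array 2 lay among the wild types while arrays 1 and 3 lay below them, and the change was -0.27 ± 0.13 (SE; limma adjusted p = 0.316). Pmpcb, the catalytic subunit, had a change of -0.20 ± 0.10 (SE), with groups that did not overlap.

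Hspd1 (Hsp60) and Hspe1 (Hsp10) form the chaperonin that folds imported proteins, and neither passed. Hspe1 read 10.19, 9.65 and 9.64 in knockout arrays 1, 2 and 3, against 10.21, 9.95 and 9.94 in wild type arrays 1, 2 and 3. Array 1 was the highest of its group in both genotypes. Hspd1 read 9.51, 9.65 and 9.70 in knockout arrays 1, 2 and 3, against 9.72, 9.92 and 9.84 in wild type arrays 1, 2 and 3, with groups that lay next to each other without overlap. The changes were -0.20 ± 0.10 for Hspd1 and -0.21 ± 0.16 for Hspe1 (SE; limma adjusted p = 0.298 and 0.534). The second probe set had a change of -0.38 for Hspd1 and -0.21 for Hspe1.

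These neighbours lie on opposite strands, and the Hspe1 window is shown because it covers the stretch between their starts. It lies at chr1:55087898-55088197 on the plus strand (RefSeq, GRCm38.p6), and 285 of its bases also lie in a Hspd1 window on the minus strand, whose start is 216 bases from that of Hspe1, so that these starts point away from each other. RefSeq gives Hspd1 another window, at chr1:55088194-55088493 on the minus strand, which shares 4 bases with that of Hspe1. Its start lies 95 bases past the Hspe1 start, and transcription from it would run through that start. Capitals mark a run where 1 heat shock element core and 2 ETS cores, on opposite strands, overlap.
Hspe1: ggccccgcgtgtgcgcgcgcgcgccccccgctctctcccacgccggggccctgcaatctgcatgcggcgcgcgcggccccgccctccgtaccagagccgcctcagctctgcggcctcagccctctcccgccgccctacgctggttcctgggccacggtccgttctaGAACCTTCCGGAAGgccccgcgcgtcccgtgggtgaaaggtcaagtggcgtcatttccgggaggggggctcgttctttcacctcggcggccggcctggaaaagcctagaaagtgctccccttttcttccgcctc
The heat shock element core was found in 3 of the members' 38 windows (7.89%, those of Hspd1, Hspe1 and Timm9), against 7.86% of all windows. The Hspd1 and Hspe1 windows hold the same site, in the bases they share, so it is counted in both.

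Across the set, 35 of the 40 members had a promoter window in the RefSeq table. The ETS core, a motif bound by factors such as the nuclear respiratory factor GABP, was in 17 of the 38 windows (44.7%, from 16 genes), against 8.86% of all windows. It was in the windows of Timm23, Grpel1, Pmpca, Pmpcb and Mtx1, among others, and in those of neither Gfer nor Timm17a. The Hspe1 window and the overlapping Hspd1 window hold the same ETS cores, which are counted in both. The NRF1 site was in 5 windows (13.2%, against 4.60%), those of Chchd4, Pam16, Timm8b, Tomm20 and Hspd1. The ATF4-CHOP element core was in 0 windows, against 3.97% of all. The estrogen-related receptor site was in 1 (Timm8b) and the YY1 core in 2 (Mtx1 and Timm50), against 0.423% and 2.75% of all windows. The members' windows were richer in GC than all windows, with medians of 59.8% and 52.7%, and all windows include those of noncoding genes. These are counts of letters only.

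Genes around the import machinery were set beside it from lists of related function. Of 9 genes listed as other chaperones and assembly factors, 8 had negative changes, with a median of -0.32. An unadjusted p under 0.05 was found for 6, all lower, against 10.3% of all genes on that side, though 0 passed over all genes. The positive one was Hspa14, at 0.13, a cytosolic Hsp70 found with ribosomes, and without it the median of the 8 mitochondrial genes was -0.35. Trap1, the mitochondrial Hsp90, averaged 9.07 ± 0.21 in knockout and 9.58 ± 0.07 in wild type muscle (SD, n = 3 each). Its change was -0.51 ± 0.12 (SE; limma adjusted p = 0.0811). Bcs1l, which inserts the iron-sulfur protein into respiratory complex III, had a change of -0.53 ± 0.14, and Atpaf2, an assembly factor of the ATP synthase, one of -0.48 ± 0.10 (SE). Hscb, a co-chaperone of iron-sulfur cluster transfer, had a change of -0.37, Dnaja3, a matrix J-protein, -0.32, and Atpaf1 -0.28.

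The proteases and prohibitins that control protein quality in mitochondria had a median of -0.22 over 12 genes, 9 of them negative and 0 past the threshold. Of the 12, 5 had an unadjusted p under 0.05, all lower, against 10.3% of all genes on that side. Knockout lay under wild type without overlap in 7, against 13.8% of all genes. It lay above wild type in 1, Htra2 (change of 0.22), against 11.1%. Clpx, the unfoldase of the matrix protease ClpXP, had a change of -0.36 ± 0.09 and Oma1, a stress-activated protease of the inner membrane, one of -0.39 ± 0.10 (SE; limma adjusted p = 0.102 and 0.11). Stoml2, Lonp1 and Spg7 had changes of -0.28, -0.26 and -0.22. Of 15 other import and insertion factors, 11 had negative changes, with a median of -0.12. None passed over all genes. An unadjusted p under 0.05 was found for 5 with negative changes, against 10.3% of all genes, and for 1 with a positive change, against 8.16%. These were Romo1, a small subunit of TIM23, at -0.37, Immp1l, an inner membrane peptidase, at -0.40, Cox18, an insertase, at -0.34, Vdac3, an outer membrane porin, at -0.22, and Mipep, a matrix peptidase, at -0.29, with Mtch1, an outer membrane protein, as the positive one at 0.24.

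The 6 genes of the complex that shapes the cristae had a median of -0.09, with Chchd6 at -0.30. The 10 cytosolic chaperones that hold precursors had a median of -0.13, with 7 negative, down to -0.45 in Hspa8, and 3 positive. Hspa8 groups overlapped, at 12.24, 11.90 and 11.14 in knockout arrays 1, 2 and 3, against 12.14 to 12.26 in wild type arrays. Only 2 of the 10, Hsp90aa1 and Dnaja1, had an unadjusted p under 0.05, both higher, against 8.16% of all genes on that side. Their changes were 0.56 ± 0.16 and 0.35 ± 0.12 (SE; limma adjusted p = 0.131 and 0.179). The 12 stress response and mitochondrial biogenesis regulators had a median of -0.03. The coactivator Ppargc1a had a change of 0.44 ± 0.12 and the mitophagy kinase Pink1 one of -0.39 ± 0.12 (SE; limma adjusted p = 0.122 and 0.137). Neither passed over all genes, and the groups did not overlap in either gene. Atf5, Ddit3 (CHOP) and Atf4, transcription factors tied to the mitochondrial unfolded protein response, had changes of -0.12, -0.01 and -0.19, and none had an unadjusted p under 0.05.

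**Figure D4:**
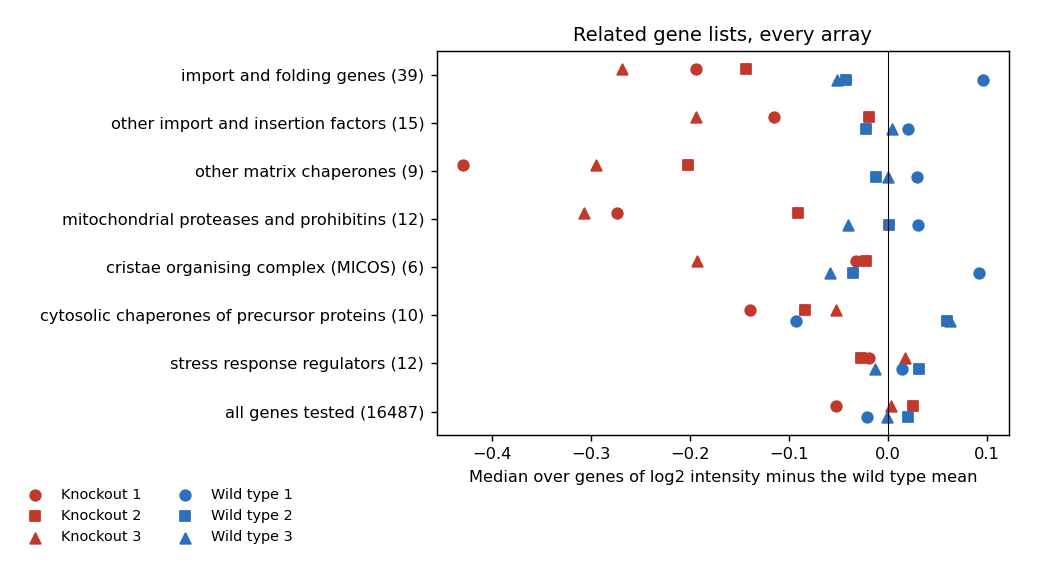
Median over the genes of each list of the log2 intensity minus the gene's wild type mean, in every array; the number of genes tested is in brackets. The import and folding genes, the other matrix chaperones (Hspa14 included) and the proteases have all 3 knockout arrays below all 3 wild type arrays, and all genes together stay between -0.05 and 0.03.

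Markers of other cells and fibre types moved with genotype or with single arrays, and their part in these differences was not tested. All 7 macrophage markers had positive changes, with a summed intensity of 2529 to 4701 in knockout and 1837 to 2033 in wild type arrays, highest in knockout array 1. The 5 fibroblast markers, all with positive changes, summed to 10480 to 13690 and 9356 to 10220. Dcn, the brightest of them, had a change of 0.09, and the others had changes of 0.36 to 0.85. The 4 tendon markers, all positive, summed to 2274 to 5291 and 2077 to 2831. Fmod, the brightest of these, had a change of 0.07 with overlapping groups. In 3 of the 4, Comp, Tnmd and Scx, knockout lay above wild type without overlap, against 11.1% of all genes. The 4 fat cell markers tested, all negative, summed to 614.5 to 739.8 in knockout and 671.3 to 1840 in wild type arrays, with wild type array 1 at the knockout level. The 7 skeletal fibre markers summed to 49910 to 53890 and 56150 to 56690, and 6 of them were lower. The 7 slow fibre markers, all negative with a median of -0.38, summed to 2671 to 7146 in knockout arrays, with array 3 the highest. In wild type arrays they summed to 5012 to 5843. Of these 7, only Myl3 passed the threshold, with a change of -1.23 ± 0.18 (SE; limma adjusted p = 0.0256). Of 4 endothelial markers 3 were negative, and they summed to 1615 to 2896 and 2173 to 2453. Of the Schwann cell and red cell markers, 2 of 4 and 1 of 3 were tested, summing to 90.3 to 99.4 and 36.2 to 60.9 in knockout arrays, against 87.9 to 97.2 and 75.5 to 94.0 in wild type arrays. No marker was at 0.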

How the data were processed

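Gene arrays from Affymetrix measured gastrocnemius RNA, with 1 array for each of 3 knockout and 3 wild type samples. The deposited values are linear probe-set intensities. The submitters' processing notes name RMA and Affymetrix Expression Console 1.3.0.187; RMA includes a background correction and a normalization between arrays. For the probe sets, the sources used here name no genome build. Values ran from 1.59 to 13565.8 over 35556 probe sets with no detection calls. The number of arrays, not depth, limits the precision.

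From the deposited intensities log2 was taken with no offset. Probe sets with 1 symbol in the platform annotation, which can be old, were kept (21789), and the probe set with the highest mean stood for a gene. Genes under the 25th percentile of probe-set means (3.90) were left out, and 16487 were tested with limma 3.58.1 in R 4.3.3 (mean-variance trend, two-sided, Benjamini-Hochberg over all genes, threshold 0.05). The procedure was tested on simulated data. Pairs of genes were compared with exact permutation tests (scipy 1.17.1).

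Members, roles, related lists and pairs were chosen with earlier results of these data known. Values of every array are given for members with an unadjusted p under 0.05 and for the largest rise and fall in each role, and also for Hspa9 and Hspd1, which were added after their values were seen. In each related list, up to 6 genes with an unadjusted p under 0.05 were named; Atf4, Atf5 and Ddit3 were added after their values were seen. Alternatives covered normalization, the dim filter, probe-set choice, variance models, weights, an offset of 16, a replicate block and leaving out each array; counts of negative members and of unadjusted p-values under them, and the list medians without Timmdc1, Tomm34 or Hspa14 were added after seeing the data. p-values measure the spread between these arrays.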

Additional observations from a re-analysis of the deposited data

How the results depend on the processing

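With 17 alternative settings the members' median kept its sign (-0.24 to -0.14) and 35 to 38 members had negative changes. Gfer passed in all 17, at adjusted p-values of 0.00205 to 0.0382, and Timm17a in 14. Over the settings that leave out 1 array, 1 to 6 members passed, with 6 only without knockout array 2 (Timm17b, Timm23, Tomm6 and Pmpca joining Gfer and Timm17a) and 1 without each of wild type arrays 1, 2 and 3. Of all genes, 27 to 1017 passed in these settings: 32, 30 and 27 without wild type arrays 1, 2 and 3, and 1017 without knockout array 2. The count was 103 after median centring, 329 with array weights and 295 with 1 variance per genotype. Tomm5 turned to -0.12 without knockout array 1, and to 0.31 without knockout array 3, with an unadjusted p under 0.05. The cause of these moves was not tested. Over all genes tested, samples with the same replicate number showed little correlation (correlations of deviations of 0.00883, 0.0822 and -0.0201; 2 of 6 samples correlated best with their own number). Whether single genes follow the replicate number was not tested. With the replicate block 123 genes passed, 64 of them lower (52.0%), against 111 of 164 in the fit without it, and 2 members passed. With no detection calls, whether dim genes such as Timm8a2 were above background is unknown.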
